A study of Mus musculus with 10 samples.

Results

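The Krüppel-like factor (Klf) genes examined here are Klf2, Klf3, Klf4, Klf6, Klf7, Klf9, Klf10, Klf11 and Klf13. They were taken by gene symbol from a table of 57010 mouse gene identifiers, and each of the 9 symbols matched 1 row. All 9 passed the filter on low values (a mean of 10 or more over the 10 libraries, in normalized read counts) and so belonged to the 12455 genes tested.

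Krüppel-like factors are transcription factors that bind CACCC boxes and GC-rich promoter sequences through zinc fingers at their carboxy terminus. Their amino-terminal parts differ and recruit either coactivators or corepressors, so that the family holds both activators and repressors. Several members are transcribed quickly after cells meet growth factors, stress or mechanical force, and in macrophages KLF2, KLF4 and KLF6 are known as regulators of differentiation and inflammatory activation.

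RNA was sequenced from primary bone marrow-derived macrophages of mice, grown from femoral marrow for 7 days with 20 ng/mL of macrophage colony-stimulating factor. The 4 groups were WT unconfined (replicates 1 and 3), WASp KO (WKO) unconfined (replicates 1 and 3), WT confined (replicates 2, 3 and 6) and WKO confined (replicates 1, 2 and 5); confined cells were held at a height of 3 µm for 1 h under silicone (PDMS) micropillars. WASp, the product of Was, drives branched actin assembly in blood cells. The labels give neither the allele, strain, sex and age of the mice nor whether replicates were separate animals, so that p-values measure the spread between these libraries, which may be technical. The labels also do not say whether unconfined cells were placed in the device, so that confinement and its handling cannot be told apart. Values are bulk, and a change in the share of a cell type cannot be told apart from a change in RNA per cell.

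Libraries held between 13295701 and 19329908 reads, and the members between 80 reads (Klf2) and 18866 reads (Klf6) in a library. Was lay between 96.9 and 154 normalized read counts in WKO libraries and between 1308 and 1649 in WT libraries, so that the target followed the labels. All 8 macrophage markers looked for were above 3 reads in every library. WKO confined replicate 5 stood apart from the other libraries: it had the highest summed level of stromal markers, 9302 against 181 to 3121 elsewhere, and the highest value of 6 members. Several results that rest on it are given with and without it.

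The sequences below show the 250 bases before the RefSeq start site (GRCm38.p6, 5′ to 3′ on the gene's strand) for the 4 members that the results turn on. Klf2 and Klf4 are the members that differed between genotypes, Klf6 is the most abundant member, and Klf3 is the member that did not pass after confinement. Capitals mark the GC box GGGCGG on either strand and the MEF2 site.
Klf2, chr8:72318812-72319061, plus strand: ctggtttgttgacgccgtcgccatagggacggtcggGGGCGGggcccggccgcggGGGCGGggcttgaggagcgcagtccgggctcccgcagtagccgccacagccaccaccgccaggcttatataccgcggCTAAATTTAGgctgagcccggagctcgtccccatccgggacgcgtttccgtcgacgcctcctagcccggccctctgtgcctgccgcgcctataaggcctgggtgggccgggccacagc
Klf4, chr4:55532476-55532725, minus strand: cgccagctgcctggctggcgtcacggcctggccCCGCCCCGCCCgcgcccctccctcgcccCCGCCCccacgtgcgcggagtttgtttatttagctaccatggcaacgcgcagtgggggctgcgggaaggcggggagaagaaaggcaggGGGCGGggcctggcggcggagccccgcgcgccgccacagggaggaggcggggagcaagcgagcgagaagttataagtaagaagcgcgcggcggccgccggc
Klf6, chr13:5861239-5861488, plus strand: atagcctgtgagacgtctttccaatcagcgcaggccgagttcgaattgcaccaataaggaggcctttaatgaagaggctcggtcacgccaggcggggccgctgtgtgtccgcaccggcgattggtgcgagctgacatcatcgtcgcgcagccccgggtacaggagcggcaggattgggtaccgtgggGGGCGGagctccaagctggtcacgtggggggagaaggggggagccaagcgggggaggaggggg
Klf3, chr5:64803271-64803520, plus strand: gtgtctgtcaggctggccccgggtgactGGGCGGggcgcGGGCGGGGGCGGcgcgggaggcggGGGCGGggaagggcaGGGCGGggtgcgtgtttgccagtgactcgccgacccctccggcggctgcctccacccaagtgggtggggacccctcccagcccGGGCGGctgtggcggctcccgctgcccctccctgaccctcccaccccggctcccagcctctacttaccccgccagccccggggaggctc

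Promoters were found for 8 members; Klf10 was not matched. The GC box, to which Klf and Sp proteins bind, was present in 7 of the 8, against 32.7% of the 32851 mouse promoters in the same table. Klf3 held 6 copies, Klf4 held 4 (of which 2 overlap each other by a base), Klf2 held 2 and Klf6 held 1. Their GC content over the 250 bases was 78.4% in Klf3, 74% in Klf4, 71.2% in Klf2 and 64.8% in Klf6, against a median of 52.4% over all promoters. CACCC, the other sequence that the family binds, was found on either strand in 5 of the 8 (Klf2, Klf3, Klf7, Klf9 and Klf13), near its share of 52% in all promoters; 1 CACCC match of Klf3 overlaps a GC box. The MEF2 site, bound by factors that act downstream of the kinase ERK5, was matched in Klf2 only, 118 bases before the start site, and in 0.508% of all promoters. TGACG, the half-site of cyclic AMP response elements, was matched in 4 of the 8 (Klf2, Klf4, Klf9 and Klf13) against 17.8% of all promoters. The CArG box, the site of serum response factor, was matched in 0 of the 8 and in 1.47% of all promoters. A match describes letters in this window and not a bound site. RefSeq start sites can differ from the GENCODE M21 gene coordinates given below. The windows of Klf2, Klf3, Klf6, Klf7 and Klf11 reach past the M21 gene start, and that of Klf7 lies wholly inside the M21 gene.

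After confinement the 9 listed Klf genes, chosen with earlier results of these data known, were higher almost throughout. In the average of the WT and WKO effects, 8 of the 9 rose and Klf3 did not pass (limma, Benjamini-Hochberg adjusted p under 0.05 over all tested genes). Of all tested genes, 6.21% passed in either direction and 4.13% were higher. The median of the members was 1.03 on the log2 scale, from 0.07 (Klf3) to 3.65 (Klf4), against a median of -0.02 over all tested genes. In 6 members all confined libraries lay above all unconfined ones, as did 4.46% of tested genes. Klf4, Klf10, Klf11 and Klf13 passed in all 19 alternative settings, which include leaving out each library; Klf2 passed in 14, Klf6 in 13, Klf9 in 9 and Klf7 in 8. The count was 5 without WT unconfined replicate 1, WT unconfined replicate 3, WT confined replicate 2 or WT confined replicate 6, and 4 without WKO unconfined replicate 1 or 3, while 2.31% to 3.56% of tested genes passed. It was 8 without WKO confined replicate 5, with 7.23% of tested genes.

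**Figure D1:**
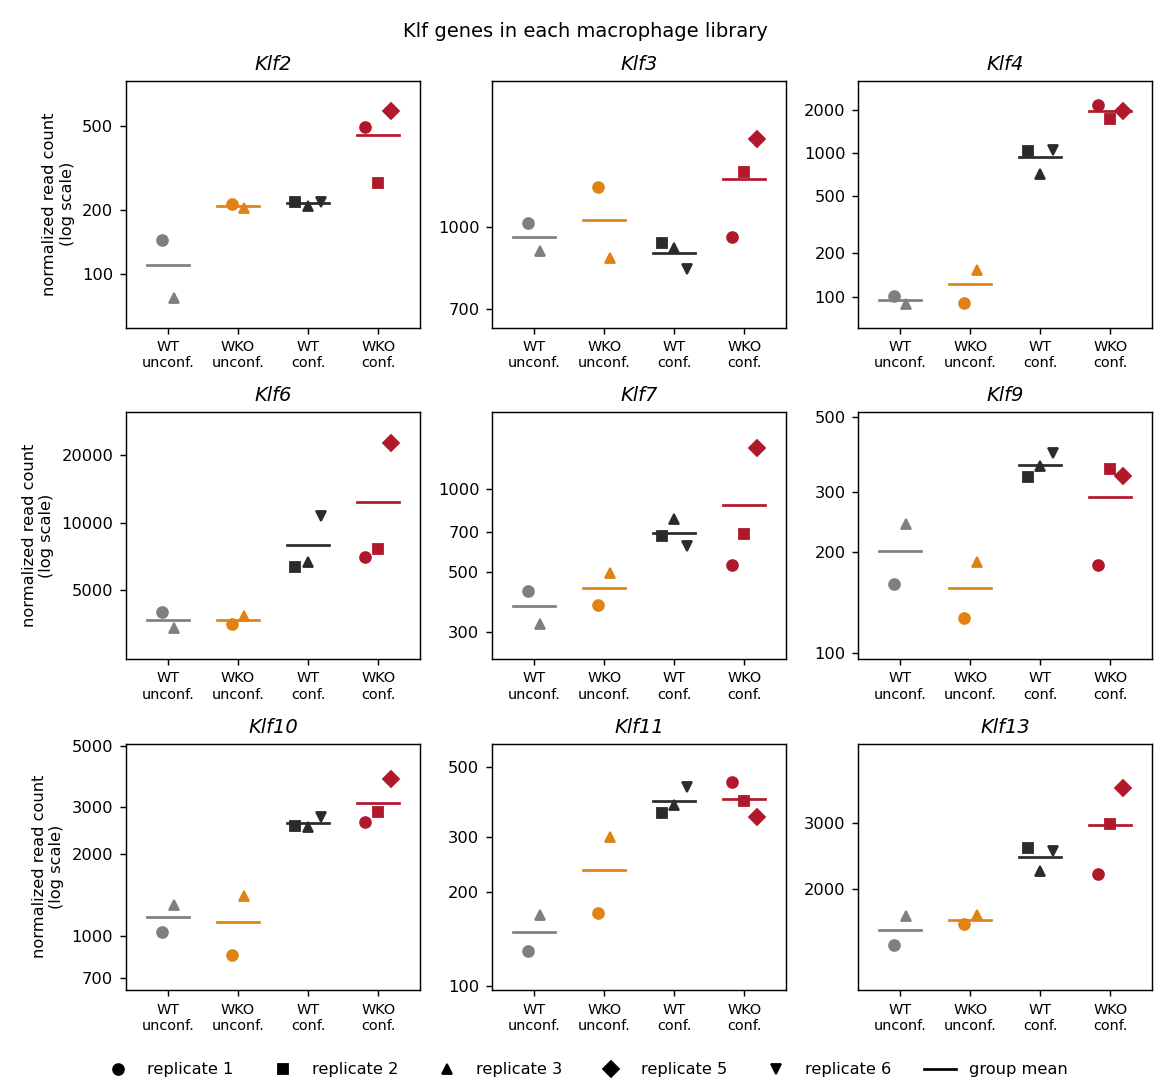
Normalized read count (log scale, y axis, set separately for each gene) of the 9 Klf genes in the 4 groups (x axis); each symbol is a library, its shape gives the replicate number and the line is the group mean. Klf4 in confined libraries (717 to 2158) lies far above unconfined ones (89.3 to 154), whereas the confined and unconfined libraries of Klf3 overlap.

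Fewer members passed in a single genotype. In WT cells Klf4, Klf10 and Klf11 rose, 3 of 9, against 1.16% of tested genes that passed and 0.891% that were higher. In WKO cells Klf4 and Klf10 rose, 2 of 9, against 1.72% that passed and 1.49% that were higher. At an unadjusted p under 0.05 the number was 8 of 9 in each genotype, against 12.2% of tested genes in WT and 14.1% in WKO. All confined libraries lay above all unconfined ones of the same genotype for 8 members in WT, against 18.3% of tested genes, and for 7 in WKO, against 14.5%. The WT and WKO effects use separate libraries but a shared estimate of the spread. Without WKO confined replicate 5 the WT count was 6, with Klf6, Klf7 and Klf13 added. In WT the count was 1, Klf4, without any of the 5 WT libraries in turn. In WKO it was 1 without unconfined replicate 1 and 6 without confined replicate 1. The share of all tested genes called moved as well, to 3.19% in WT without WKO confined replicate 5, to between 0.177% and 0.530% without a WT library, and in WKO to 0.345% and 8.37% under the settings just named.

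KLF2 and KLF4 form the activator branch that is known for vascular and myeloid quiescence; KLF4 also takes part in monocyte differentiation and alternative macrophage activation. Klf4 (ENSMUSG00000003032, chr4:55527143-55532466, GRCm38) had values of 101 and 89.3 in WT unconfined libraries and of 1030, 717 and 1043 in WT confined ones. In WKO it had 89.8 and 154 unconfined and 2158, 1720 and 1965 confined. Every confined library was above every unconfined one, and the WKO confined libraries lay above the WT confined ones.

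Klf4 rose 9.58-fold in WT (log2 3.26, SE 0.231, limma adjusted p 0.000125) and 16.4-fold in WKO (log2 4.03, SE 0.231, limma adjusted p 1.14e-05). It ranked 21st of the 12455 genes by the average confinement effect, which was 3.65 on the log2 scale (95% interval 3.29 to 4.00). Both calls in single genotypes held in all 20 alternatives.

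Klf2 (ENSMUSG00000055148, chr8:72319033-72321656) held the lowest read count of any member in a library, 80 in WT unconfined replicate 3. It had 143 and 76.8 normalized read counts in WT unconfined libraries, 219, 209 and 219 in WT confined, 214 and 203 in WKO unconfined and 497, 270 and 590 in WKO confined libraries. WT confined and WKO unconfined libraries thus lay in the same range, with WT unconfined below and WKO confined above. The confinement effect was 1.03 in WT and 1.04 in WKO on the log2 scale, and neither passed (limma adjusted p 0.183 and 0.157). Their average of 1.03 (SE 0.224) passed with an adjusted p of 0.0194. It did not pass without WT unconfined replicate 3 (0.0921), WKO unconfined replicate 1 (0.0762) or 3 (0.0819), or WT confined replicate 2 (0.0515).

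KLF6 and KLF7 form a further activator branch; KLF6 is induced by tissue injury and supports inflammatory gene expression in macrophages. Klf6 (ENSMUSG00000000078, chr13:5861482-5870394) had 3976 and 3392 in WT unconfined, 6322, 6686 and 10717 in WT confined, 3519 and 3812 in WKO unconfined and 7001, 7592 and 22605 in WKO confined libraries. All confined libraries were above all unconfined ones, and WKO confined replicate 5 stood far above the rest. The average effect was 1.30 (SE 0.284, limma adjusted p 0.02) and 1.03 without WKO confined replicate 5 (SE 0.135, limma adjusted p 0.000412). The call was lost without either unconfined WT or WKO replicate (adjusted p between 0.0679 and 0.0899) or without WT confined replicate 6 (0.0506).

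Klf7 (ENSMUSG00000025959, chr1:64029447-64122282) had 426 and 322 in WT unconfined, 677, 780 and 619 in WT confined, 378 and 494 in WKO unconfined and 528, 683 and 1422 in WKO confined libraries. Confined libraries again lay above unconfined ones, with WKO confined replicate 5 the highest. Its average effect was 0.89 (SE 0.230, limma adjusted p 0.0421), and 0.68 without that replicate (limma adjusted p 0.00814). Leaving out any other library except WKO confined replicate 1 ended the call, with adjusted p between 0.0579 and 0.170. Its count is uncertain, because 39.4% of its exon length is overlapped by genes on the opposite strand (Gm26649 and Gm13748) and the use of strand in counting is not given in the sources used here.

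KLF10 and KLF11, first described as early genes induced by transforming growth factor beta, and KLF9 and KLF13 are repressors that bind the corepressor SIN3A. Klf10 (ENSMUSG00000037465, chr15:38291463-38300706) had 1039 and 1306 in WT unconfined, 2550, 2527 and 2736 in WT confined, 853 and 1407 in WKO unconfined and 2635, 2869 and 3799 in WKO confined libraries. No confined library was below 2527 and no unconfined one above 1407. It rose 2.23-fold in WT (log2 1.16, SE 0.206, limma adjusted p 0.0207) and 2.79-fold in WKO (log2 1.48, SE 0.206, limma adjusted p 0.00403). The WT call was lost without any of the 5 WT libraries (adjusted p between 0.0788 and 0.206), and the WKO call without WKO unconfined replicate 1 (0.0638).

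Klf11 (ENSMUSG00000020653, chr12:24651274-24662789) had 129 and 169 in WT unconfined, 357, 379 and 431 in WT confined, 171 and 299 in WKO unconfined and 448, 391 and 347 in WKO confined libraries. Confined libraries of both genotypes shared a range, while WKO unconfined replicate 3 lay between the unconfined and confined levels of WT. Klf11 rose 2.61-fold in WT (log2 1.39, SE 0.234, limma adjusted p 0.0156); this call was lost without any of the 5 WT libraries (adjusted p between 0.0524 and 0.165). In WKO the effect of 0.80 did not pass (limma adjusted p 0.143), and the difference between the genotypes was -0.59 (95% interval -1.31 to 0.13, adjusted p 0.999).

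Klf13 (ENSMUSG00000052040, chr7:63886351-63938915), known from T cells as an activator of the chemokine gene Ccl5, had 1424 and 1707 in WT unconfined, 2566, 2234 and 2530 in WT confined, 1618 and 1711 in WKO unconfined and 2201, 2978 and 3701 in WKO confined libraries. The lowest confined library was above the highest unconfined one. Its average effect was 0.72 (SE 0.129, limma adjusted p 0.00671), a fold of 1.65. The WKO effect was 0.80 (limma adjusted p 0.0512), and 0.62 without WKO confined replicate 5 (limma adjusted p 0.0607).

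Klf9 (ENSMUSG00000033863, chr19:23141226-23168134), a glucocorticoid-responsive member, had 161 and 242 in WT unconfined, 332, 358 and 391 in WT confined, 127 and 186 in WKO unconfined and 182, 352 and 334 in WKO confined libraries. Here WKO confined replicate 1 fell within the unconfined range. The average effect was 0.86 (SE 0.206, limma adjusted p 0.0327). The call was lost without any of 7 libraries, namely WT unconfined replicate 1, WKO unconfined replicates 1 and 3, the 3 WT confined replicates and WKO confined replicate 2, with adjusted p from just above 0.05 to 0.147.

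Klf3 (ENSMUSG00000029178, chr5:64803388-64832901) encodes a repressor that recruits CtBP. It had 1017 and 902 in WT unconfined, 934, 913 and 832 in WT confined, 1189 and 873 in WKO unconfined and 957, 1270 and 1463 in WKO confined libraries. The 4 groups overlapped in part. Its confinement effect was -0.10 in WT, 0.25 in WKO and 0.07 on average (95% interval -0.21 to 0.36, limma adjusted p 0.79); the sign of the average turned under upper-quartile scaling (-0.01). Gm20033 on the opposite strand overlaps 3.59% of its exon length.

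**Figure D2:**
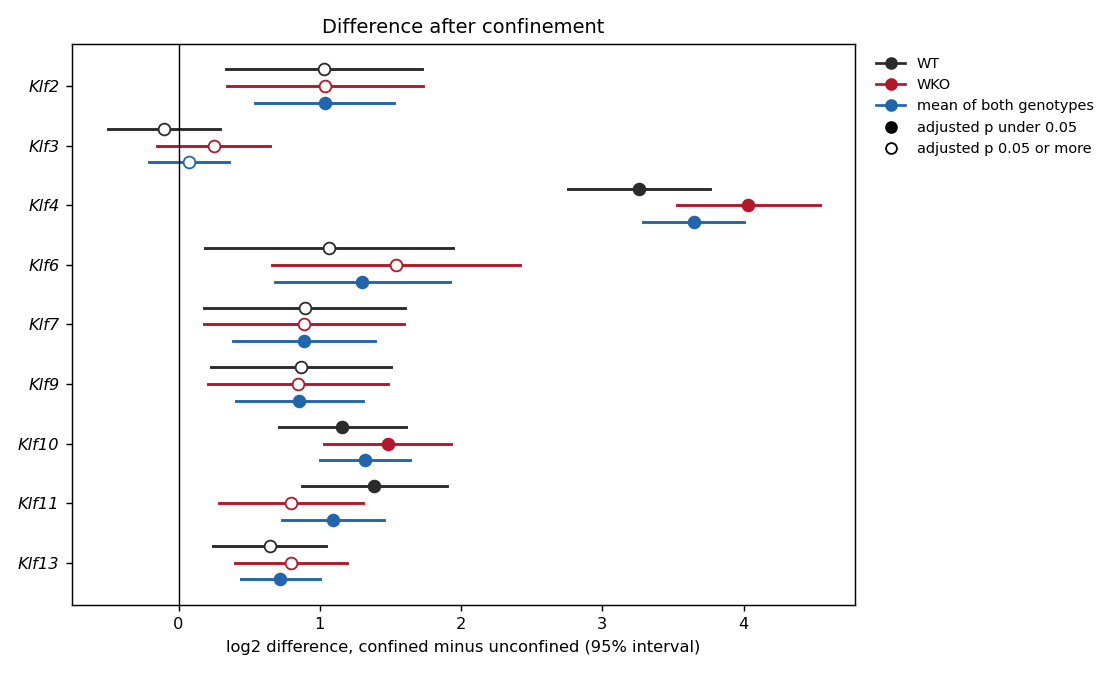
Log2 difference, confined minus unconfined (x axis), of each Klf gene (y axis) in WT, in WKO and averaged over both; lines are 95% intervals from limma and filled points have an adjusted p under 0.05. Klf4 lies at 3.26 in WT and 4.03 in WKO, and Klf3 is the gene whose average interval includes 0.

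Between the genotypes the differences were fewer and smaller. In confined cells Klf4 was higher in WKO, 1 of 9 members, against 2.59% of tested genes that passed and 1.38% that were higher; its libraries (1720 to 2158) lay above those of WT (717 to 1043). The difference was 1.08 on the log2 scale (SE 0.207, 95% interval 0.63 to 1.53, limma adjusted p 0.0196). It was 1.07 without WKO confined replicate 5 (limma adjusted p 0.0235) and was no longer called without WT confined replicate 2 (0.058) or 3 (0.091). In unconfined cells 0 of 9 members passed with limma, edgeR or DESeq2, against 0.145% of tested genes with limma; 2 members, Klf2 and Klf11, had an unadjusted p under 0.05, against 9.60% of tested genes. The unconfined libraries of Klf4 overlapped between genotypes (log2 difference 0.31, limma adjusted p 0.781).

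Averaged over both conditions, Klf2 and Klf4 were higher in WKO, 2 of 9, against 5.57% of tested genes that passed and 2.90% that were higher. In 0 of 9 members did all WKO libraries lie above all WT libraries, against 3.38% of tested genes. For Klf2 the difference was 0.98 in unconfined and 0.99 in confined cells, with no overlap between genotypes in either condition, a separation seen in 2 of 9 members unconfined (22.2% of tested genes) and in 3 confined (10.7%). Neither passed alone (limma adjusted p 0.376 and 0.0931), and the average of 0.99 did (SE 0.224, limma adjusted p 0.0267). Without WKO confined replicate 5 the confined Klf2 difference was 0.76 (limma adjusted p 0.191) and the average 0.87 (limma adjusted p 0.0221). The Klf2 average was no longer called without WT unconfined replicate 3, WKO unconfined replicate 1 or 3, or any WT confined replicate (adjusted p between 0.0538 and 0.107). For Klf4 the average was 0.69 (SE 0.164, limma adjusted p 0.0307); it was no longer called without WT unconfined replicate 1 or 3, WKO unconfined replicate 3, or WT confined replicate 2 or 3 (between 0.0517 and 0.156). Without a filter on low values neither passed (0.0532 for Klf2 and 0.0588 for Klf4).

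The remaining 7 members did not pass between genotypes in any of these comparisons. Klf3 had a log2 difference of 0.44 in confined cells, where the 3 WKO libraries lay above the 3 WT libraries (limma adjusted p 0.194), and 0.31 without WKO confined replicate 5. Klf6 had 0.47 in confined cells and -0.08 without that replicate, and Klf7 0.22 and -0.20. Klf9 was the single member with negative estimates in both conditions, -0.36 unconfined and -0.37 confined (limma adjusted p 0.806 and 0.527). Klf10 had -0.09 and 0.23, Klf11 0.61 and 0.02, and Klf13 0.09 and 0.25. Without WKO confined replicate 5 their confined differences were 0.08, 0.11 and 0.07.

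**Figure D3:**
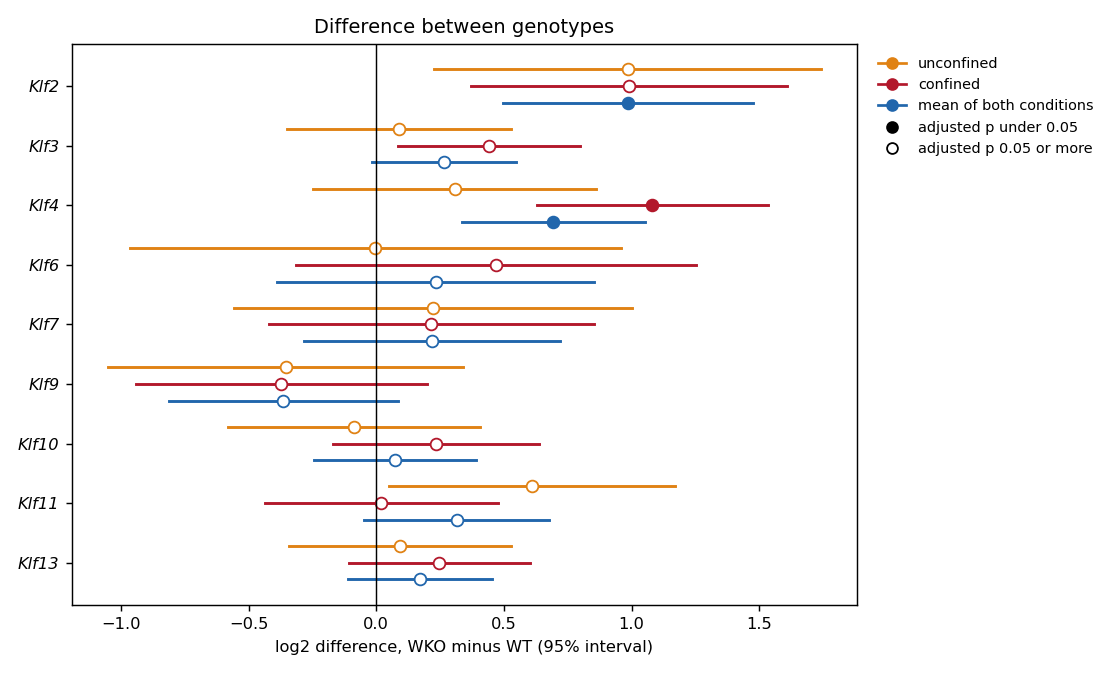
Log2 difference, WKO minus WT (x axis), of each Klf gene (y axis) in unconfined cells, in confined cells and averaged over both; lines are 95% intervals from limma and filled points have an adjusted p under 0.05. Filled points occur for Klf4 in confined cells (1.08) and for the averages of Klf2 (0.99) and Klf4 (0.69).

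Whether the confinement response differed by genotype was tested with the interaction, the WKO effect minus the WT effect. With limma 0 members and 0% of tested genes passed, and edgeR and DESeq2 also called 0 members. Klf4 was the single member with an unadjusted p under 0.05 (0.0362, adjusted 0.999), against 2.07% of tested genes; its interaction was 0.77 (95% interval 0.06 to 1.49). For Klf2 the interaction was 0.006 with a wide interval, from -0.97 to 0.98, and for Klf6 it was 0.47 (-0.77 to 1.71). Without WKO confined replicate 5 the Klf6 interaction was -0.07 (95% interval -0.66 to 0.51).

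Marker genes of other cells moved with some of these groups. Of the 8 neutrophil and progenitor markers 5 were higher in WKO averaged over the conditions, against 2.90% of tested genes. On average 1 fell after confinement, against 6.21% of tested genes that passed in either direction. Of the 9 stromal markers tested, 5 were higher in WKO in confined cells, against 1.38% of tested genes. The stromal count is not given without WKO confined replicate 5. The 8 neutrophil and progenitor markers summed to 6847 to 10700 in WT unconfined, 24632 to 29625 in WKO unconfined, 2533 to 7903 in WT confined and, for WKO confined libraries, 6952 to 27786. Within WKO confined libraries the sums were 21516, 27786 and 6952 in replicates 1, 2 and 5, where Klf4 was 2158, 1720 and 1965. The 10 stromal markers summed to 807 to 1673 in WT unconfined, 2200 to 2508 in WKO unconfined, 181 to 711 in WT confined and, for WKO confined libraries, 766 to 9302. Klf2 in WKO confined libraries followed the order of the stromal sums, 3121, 766 and 9302 in replicates 1, 2 and 5. The order was also shared in WT confined libraries, where Klf2 hardly varied (209 to 219). In unconfined libraries it was reversed. Replicates 1 and 3 of WT had Klf2 values of 143 and 76.8 against stromal sums of 807 and 1673. Those of WKO had 214 and 203 against 2200 and 2508. The part of these cells in the Klf2 and Klf4 differences was not tested.

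Other marker lists were described by their values and sums, with counts of calls for some. KLF2 and KLF4 are abundant in endothelium. Of its 7 markers Tek reached at most 3.59, Cldn5 2.35 and Emcn 9.87, while Cdh5 lay between 8.21 and 38.4 and Pecam1 between 17.1 and 79.0, and Kdr was at least 39.2 in every library. Vwf (1727 to 3769) made up most of the summed level of 1893 to 3886. Pecam1, which leukocytes also express, was 67.1 to 79.0 in WKO confined libraries and 17.1 to 28.9 in WT confined ones (log2 1.80, limma adjusted p 0.0194). Of the 4 endothelial markers tested it alone was called in this comparison, against 2.59% of tested genes that passed and 1.38% that were higher. Vwf went the other way, with 1952 to 2227 in WKO confined and 2285 to 3769 in WT confined libraries, while Kdr and Cdh5 overlapped. The part of such cells was not tested. T and B cell markers summed to at most 81.6, erythroid markers to 61.9, epithelial markers to 4.80 and dendritic cell markers to 127. In confined cells 1 of the 3 dendritic cell markers tested was higher in WKO, against 1.38% of tested genes. Osteoclast markers summed to 1009 to 1715 in WT unconfined, 720 to 794 in WKO unconfined, 945 to 1222 in WT confined and, for WKO confined libraries, 803 to 1004. In confined cells 2 of the 4 osteoclast markers tested were lower in WKO, against 2.59% of tested genes that passed in either direction. Of the 8 macrophage markers 3 were higher in WKO in confined cells, against 1.38% of tested genes. Macrophage markers summed to 179561 to 208283 in WT and 241895 to 314561 in WKO libraries. Lyz2 (100507 to 200203) made up most of this sum, and not all markers followed it: in unconfined cells Itgam was 2459 and 2830 in WT against 2149 and 2299 in WKO, and Cd14 was 3723 and 4786 against 2885 and 3189.

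Levels of different members were compared per kb of exon (union of exons in GENCODE M21), as normalized read count per kb. In WT unconfined cells Klf6 was highest at 839 ± 94.1 (SD, n = 2), followed by Klf10 at 281 ± 45.2, Klf13 at 208 ± 26.6 and Klf3 at 85.4 ± 7.25, and neighbours in this order did not overlap. Klf2, Klf7, Klf9, Klf11 and Klf4 followed, between 59.6 and 31.1, and each overlapped its neighbour. After confinement in WT, Klf4 ranked 4 of 9 at 305 ± 60.5 (SD, n = 3), in the range of Klf13 at 324 ± 24.2. In WKO confined cells Klf4 at 639 ± 71.9 ranked 3, overlapping Klf10 at 742 ± 147, and Klf6 ranked 1 at 2824 ± 2014. Without WKO confined replicate 5, Klf6 was at 1662 (1594 and 1729) and ranked 1, and Klf4 was at 636 ± 101 (SD, n = 2) and ranked 3. Klf3 ranked 4 in WT unconfined and 8 in WT confined cells, with levels of 85.4 and 79.4. Exon unions include exons that macrophages may not use, which affects the order of members, most of all that of Klf3. Its union is 11243 bases over 9 transcripts, against 5221 bases in its longest transcript, so that its rank can depend on the length used.

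**Figure D4:**
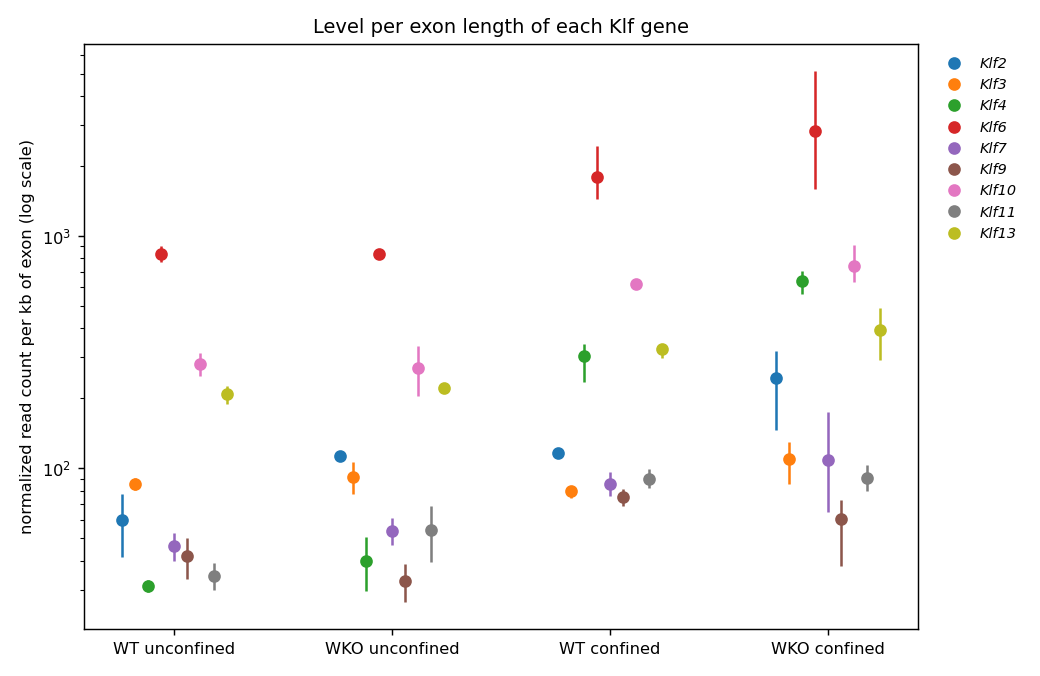
Normalized read count per kb of exon (log scale, y axis) of the 9 Klf genes in the 4 groups (x axis); points are group means and vertical lines run from the lowest to the highest library. Klf4 is lowest in WT unconfined cells (31.1) and ranks 3 in WKO confined cells (639).

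Of the 8 other Klf genes found in the table, 3 were tested (Klf5, Klf8 and Klf16). After confinement 0 of the 3 passed in WT, in WKO or on average, and their median average effect was 0.19. Klf5, an activator known from epithelia, was higher in WKO averaged over the conditions (log2 2.50, SE 0.540, limma adjusted p 0.0215), at low counts of 16.8 to 35.8 in WKO and 1.61 to 9.38 in WT libraries. Klf14 and Klf17 were at 0 reads in all libraries, and Klf1, Klf12 and Klf15 at no more than 10. The related Sp genes bind the same GC boxes. Of the 9 Sp genes 4 were tested (Sp1, Sp2, Sp3 and Sp4), and 0 passed in any of the 7 comparisons. Their median confinement effect was 0.25 on average, against 1.03 for the members. Because the members were chosen with earlier results of these data known, this contrast is a description and not a test.

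Kinases, coactivators, corepressors and upstream factors of the family were described as a list of 28 genes, all tested. After confinement 1 rose in the average effect, Crebbp, a histone acetyltransferase and coactivator (log2 0.72, limma adjusted p 0.0455), and 0 fell; 1 was higher in WKO averaged over conditions, Smad3, a transducer of TGF-beta signals (0.46, adjusted p 0.0499). These counts of 1 in 28 lie near the shares of all tested genes that were higher, 4.13% and 2.90%. The median confinement effect of the list was 0.15. Neither gene passed in a single genotype or condition.

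Among 22 genes reported as targets of Klf factors or sharing their inducers, 20 were tested. After confinement 5 rose on average and 0 fell: Cebpb, a myeloid transcription factor (log2 1.93, limma adjusted p 0.000941), Smad7, an inhibitor of TGF-beta signalling (1.76, 0.0018), Per1, a clock gene (1.38, 0.00158), Cdkn1a, which encodes the cell cycle inhibitor p21 (0.74, 0.0272), and Tsc22d3, a glucocorticoid-induced gene (0.67, 0.00325). Cebpb and Per1 passed in both genotypes, and Smad7 and Tsc22d3 in WKO. The list's median was 0.14, and the share of all tested genes that were higher was 4.13%. In confined cells 0 were higher and 3 lower in WKO, against 2.59% of tested genes that passed: Mmp9, a matrix metalloproteinase (-1.97, 0.0185), Cdkn1c, a cell cycle inhibitor (-1.92, 0.016), and Ccnd1, cyclin D1 (-0.90, 0.0159). Averaged over the conditions the same 3 genes were lower in WKO and 3 were higher, against 5.57% of tested genes that passed. The higher genes were Chil3, a marker of alternative macrophage activation (1.55, 0.0428), Tsc22d3 (0.44, 0.0306) and Tgfbr2, a receptor of TGF-beta (0.42, 0.0178). Chil3 was 1431 in WKO confined replicate 5, within its WT range of 549 to 2632. Mrc1 and Arg1, further markers of alternative activation on the list, were not called, and Retnla was at 0 in all libraries.

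For each member the 3 genes with the most similar profile over the 10 libraries were listed by Pearson r of log2 values, as a description. The libraries share groups, so that genes with a similar confinement effect can correlate for that reason alone. Klf4 was most like Spty2d1 (0.99), Tob1 (0.98) and Irs2 (0.98). Spty2d1 had 717 ± 19.1 in WT unconfined and 809 ± 125 in WKO unconfined (SD, n = 2), and 1641 ± 262 in WT confined (SD, n = 3), with 2046 ± 105 in WKO confined libraries (SD, n = 3). Klf6 was most like Slfn2, Icam1 and Sdc4 (0.98 each), and Klf10 most like Nr4a1, Gem and Id2 (0.98 each). For Klf7 these were Zbtb21, Bcl2l11 and Rapgef2 (0.97 to 0.98), for Klf13 Tshz1, Zbtb10 and Grb2 (0.97 each), and for Klf11 Nuak2, Nr1d1 and Mafk (0.95 to 0.96). Klf9 was most like Lhfpl2, Tex2 and Sumo3 (0.94 to 0.95), Klf3 like Il13ra1, Slfn8 and Irf4 (0.92 to 0.93) and Klf2 like Cdk11b, Zfp703 and Qsox1 (0.92 to 0.93).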

How the data were processed

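Messenger RNA was sequenced in 10 libraries made from 5 ng of total RNA. FastQC, Trim Galore and STAR with GRCm38 and mm10 are named in the submitters' processing notes; the counting tool, annotation and strand setting are not given in the sources used here. The authors deposited a signal value, the normalized read count, for each of 57010 identifiers, of which 4981 are not in GENCODE M21; coordinates of members are from M21 and RefSeq (GRCm38). Divided by its smallest value above 0, each library gave whole reads for 100% of values (relative tolerance 1e-06), and DESeq2 1.42.0 size factors of the recovered reads equalled the deposited scaling to within 2.89e-15. The floor of 3 reads corresponds to a value of 2.35 to 3.59 and covers counting error only.

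Values were tested as log2(value + 1) with limma 3.58.1 in R 4.3.3, with 1 mean per group over all libraries (6 residual degrees of freedom), a mean-variance trend and Benjamini-Hochberg adjustment over 12455 genes with a mean of at least 10; the threshold was 0.05. Folds refer to log2(value + 1), so that changes of low genes are understated. Comparisons were WKO against WT in each condition, confined against unconfined in each genotype, both averages and the interaction. Alternatives were the pseudocount, the filter, scaling, block, trend, array weights, fitted groups, edgeR 4.0.16, DESeq2 and leaving out libraries. The code was tested on simulated counts.

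The members and lists were chosen with earlier results of these data known. All members are named, other lists by those that passed, and 3 similar genes per member with a mean of at least 50. Replicate pairs differed by a chi-square of 7.56 to 78.3 per degree of freedom, more than counting noise, and each was counted as 1 replicate; whether pairs share a culture or RNA was not tested. By blastn 2.17.0 at 95% identity over 100 bases, the transcripts of 7 members matched no other gene; Klf3 matched Gm20033 and Klf7 Gm26649.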

Additional observations from a re-analysis of the deposited data

How the results depend on the processing

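With 2 or 3 libraries per group, single-genotype contrasts rest on few values, and the number of members called moved with the setting; the cause was not tested. For WKO against WT in confined cells (1 member called) the count was 0 without the mean-variance trend, 3 with array weights, 2 with DESeq2 and 0 to 2 over the left-out libraries; the share of all tested genes called was 0.426%, 15.6% and 6.22% under the first 3. For confinement in WT (3 called) it was 1 without the trend, 5 with array weights, 6 when only the 2 groups compared were fitted and 1 to 6 over the left-out libraries, with shares of 0.161%, 3.36% and 3.65%. For confinement in WKO (2 called) it was 1, 7 and 1 under those settings, 5 with DESeq2 and 1 to 6 over the left-out libraries, with shares of 0.361%, 13.9%, 0.265% and 3.90%. For the average confinement effect (8 called) it was 4 without the trend (share 3.40%) and 4 to 8 over the left-out libraries. For the average genotype effect (2 called) it was 0 without the trend (2.89%), 0 without the filter (1.86%) and 0 to 2 over the left-out libraries. The counts of 0 for unconfined genotype and interaction held under all alternatives run.

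Libraries with the same replicate number had an r of deviations from group means between -0.11 and 0.08. In groups of 2 libraries the deviations mirror each other, so that these r cannot decide whether the numbers pair libraries. With the replicate number as a block, the count was 5 for confinement in WT and 4 in WKO (shares 1.73% and 1.78%). Klf3 turned to -0.040 in WKO and -0.080 on average, Klf7 to -0.22 for confined genotype, and the interaction to -0.50 for Klf2 and 0.24 for Klf9. Only WKO confined replicate 5 and WT confined replicate 6 carry their numbers, so that the block takes up these libraries. These shifts therefore cannot be read as an effect of pairing. Klf7 was -0.20 for confined genotype without WKO confined replicate 5.

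Signs also turned for small estimates. Klf6 in unconfined genotype became 0.000793 with TMM and 0.019 with upper-quartile scaling, which moved the all-gene median of the average confinement effect to -0.10 and gave Klf3 -0.015. The interaction of Klf2 became -0.0094 with TMM, -0.025 with upper-quartile scaling and -0.51 with array weights, that of Klf7 0.10 with edgeR and 0.12 with DESeq2, and that of Klf9 0.26 with array weights, 0.026 with edgeR and 0.042 with DESeq2.

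Over the left-out libraries, unconfined genotype ran from -0.13 to 0.31 for Klf3, -0.078 to 0.69 for Klf4, -0.12 to 0.11 for Klf6, -0.45 to 0.27 for Klf10 and -0.037 to 0.22 for Klf13. Confined genotype ran from -0.075 to 0.77 for Klf6, -0.20 to 0.52 for Klf7 and -0.074 to 0.11 for Klf11. The average confinement effect of Klf3 ran from -0.038 to 0.18, and the average genotype effect from -0.039 to 0.38 for Klf6 and -0.11 to 0.25 for Klf10. The interaction ran from -0.44 to 0.45 for Klf2, -0.071 to 0.77 for Klf6, -0.42 to 0.29 for Klf7, -0.31 to 0.29 for Klf9, -0.037 to 0.68 for Klf10 and -0.023 to 0.35 for Klf13. Of the other single-gene values, 537 with a library left out and 548 under other settings kept direction and call, 48 and 17 lost the call, and 12 and 22 gained it.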

Other observations

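Across the 10 libraries the members varied together to different degrees, which is given as a description because the libraries share groups. The most similar pair was Klf4 and Klf10 (Pearson r 0.95 of log2 values), followed by Klf10 and Klf13 (0.93) and by Klf6 and Klf7 (0.91). Klf3 was the member least like the rest, with r between -0.06 (Klf11) and 0.52 (Klf2). Klf2 and Klf9, both of which rose on average, had an r of 0.17.

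Klf6 supplied between 41.3% and 62.4% of the summed normalized read counts of the 9 members. That sum was 8159 to 9140 in unconfined libraries, 14801 to 19519 in WT confined libraries and 16607 to 36227 in WKO confined libraries, the highest of which was replicate 5. Klf11 ran against that library: WKO confined replicate 5 had the lowest Klf11 value of its group (347) and the highest value of Klf2, Klf3, Klf6, Klf7, Klf10 and Klf13.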
